A study of Mus musculus with 16 samples.

Results

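Spinal cord of mice that carry a mutant human profilin 1 gene is compared here between an age before symptoms and the end stage of disease. All mutant mice of the series were taken, which gave 8 of its 16 mice: 5 at end stage (mutant old, MO) and 3 at 50 days of age (mutant young, MY). The study crossed a mutant and an unchanged human profilin 1 transgene with a young and an old age, and the 8 mice with the unchanged human gene (WO when old, WY when young) serve only as a second ageing for selected genes. Each mouse gave 1 library of whole spinal cord RNA, and the change of a gene is its MO mean minus its MY mean of log2(1 + FPKM), where FPKM is a level scaled for gene length and library size. Standard errors (SE) are in log2 units.

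The mutant mice were of line 838Kiaei and carried human profilin 1 with the G118V change, and the wild-type mice were of line 850Kiaei, both on a C57BL/6N background. In both lines the human profilin 1 sequence was driven by a prion protein (*Prnp*) promoter vector. MO1, MO2 and MO3 were 198, 190 and 245 days old and belonged to batch 1, together with the 3 MY mice. MO4 and MO5 were 224 and 175 days old and formed the MO mice of batch 2. WY1 to WY3 were 50 days old and WO1 to WO3 190 days old, all of batch 1. WO4 and WO5 were 294 days old and of batch 2, so age and batch changed together within WO. Because batch 2 holds no young mouse, values from batch 1 alone stand beside the pooled ones for leading genes and for lists whose counts moved, and in MO4 and MO5 batch and stage cannot be told apart. All mice were described as male, but MO5 held *Xist* at 3.21 and the Y-linked gene *Ddx3y* at 1.95. In MO1 to MO4, *Xist* did not exceed 0.26 and *Ddx3y* was between 4.30 and 4.70. Genes of neurons, astrocytes and oligodendrocytes were high in every MO and MY mouse, with *Snap25* at 10.08 or more, *Gfap* at 9.81 or more and *Mbp* at 12.16 or more. MO5 was kept, and calls of named genes and list counts that changed without it are given.

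Profilin 1 binds actin monomers and feeds them to growing filaments, so it bears on axon growth, phagocytosis and cell shape. The G118V change was found in families with amyotrophic lateral sclerosis, in which motor neurons die and glial cells around them change state. Microglia and astrocytes, the axons and synapses of motor neurons, and the oligodendrocytes that wrap axons each leave their own genes in whole cord RNA, and the results are ordered by these roles.

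A gene was called when its false discovery rate from limma (FDR, after Benjamini and Hochberg) did not exceed 0.05 and its fold change reached 1.5. Called genes were 4.11% of the 18167 genes upward (747) and 0.787% downward (143), together 4.90% (890). Batch 1 alone gave 6.05% (1099). Groups did not overlap in any mouse in 31.6% of all genes (5735), in 744 of those called up and in 142 of those called down. The median change was 0.94 in the genes called up, -0.72 in those called down and 0.0047 over all genes. By FDR alone, 25.6% of all genes (4646) passed, 13.1% above 0 (2377) and 12.5% below 0 (2269), and 36.7% (6673) had an unadjusted P below 0.05. Counts of these kinds in the lists below are to be read against those shares. Lists and members were chosen with earlier results of these data known, so their counts describe and do not test. A change of at least 1 was reached by 326 genes upward and by 12 downward. Within batch 1 these medians were 1.02 and -0.85, and the change was larger there in 680 of the 747 genes called up and in nearly all called down.

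The 5 end-stage mice differed in how far they stood from the young mice. Over the genes called up, the median distance from the MY mean was 0.96, 1.03 and 1.11 in MO1 to MO3, 0.76 in MO4 and 0.89 in MO5. Over those called down it was -0.94, -0.85 and -0.82 in MO1 to MO3 and -0.49 and -0.62 in MO4 and MO5. MO4 showed the smallest change of the 5 mice in 442 of the 747 genes called up and in 92 of the 143 called down. The pair of batch 2 was closer to MY than each MO mouse of batch 1 in 283 genes called up and in 90 called down. Old wild-type mice of batch 2 also differed from those of batch 1 in some lists. Mean levels of disease-associated microglia genes were 4.28, 4.30 and 4.34 in WO1 to WO3 and 3.84 and 3.79 in WO4 and WO5. Those of sterol genes were 5.14, 5.12 and 5.18 against 5.44 and 5.40. Myelin genes did not shift together, at 7.22, 7.17 and 7.25 against 7.06 and 7.43. How far batch sets MO4 and MO5 closer to MY was not tested. At least 1 gene was called up in 29 of 52 gene lists and called down in 11, and 17 lists held no call.

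Some list counts depended on the mice used. Without MO5, calls upward went from 14 to 16 in innate sensing, from 11 to 12 in chemokines, from 18 to 19 in interferon-induced genes and from 8 to 7 in actin regulators. Calls downward then went from 9 to 10 in myelin, from 3 to 4 in precursors of oligodendrocytes, from 0 to 1 in excitatory and actin genes and from 1 to 0 in homeostatic astrocytes. With batch 1 alone, calls upward were 13 in resting microglia, 16 in innate sensing, 12 in chemokines, 17 in interferon-induced genes, 20 in reactive astrocytes, 5 in p53 targets, 9 in antioxidants, 7 in actin regulators and 1 in ependyma. Calls downward were then 3 in motor neuron subtypes and 1 each in excitatory, heat shock, actin, vessel and developmental genes. Other alternatives moved further counts, some by more.

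**Figure D1:**
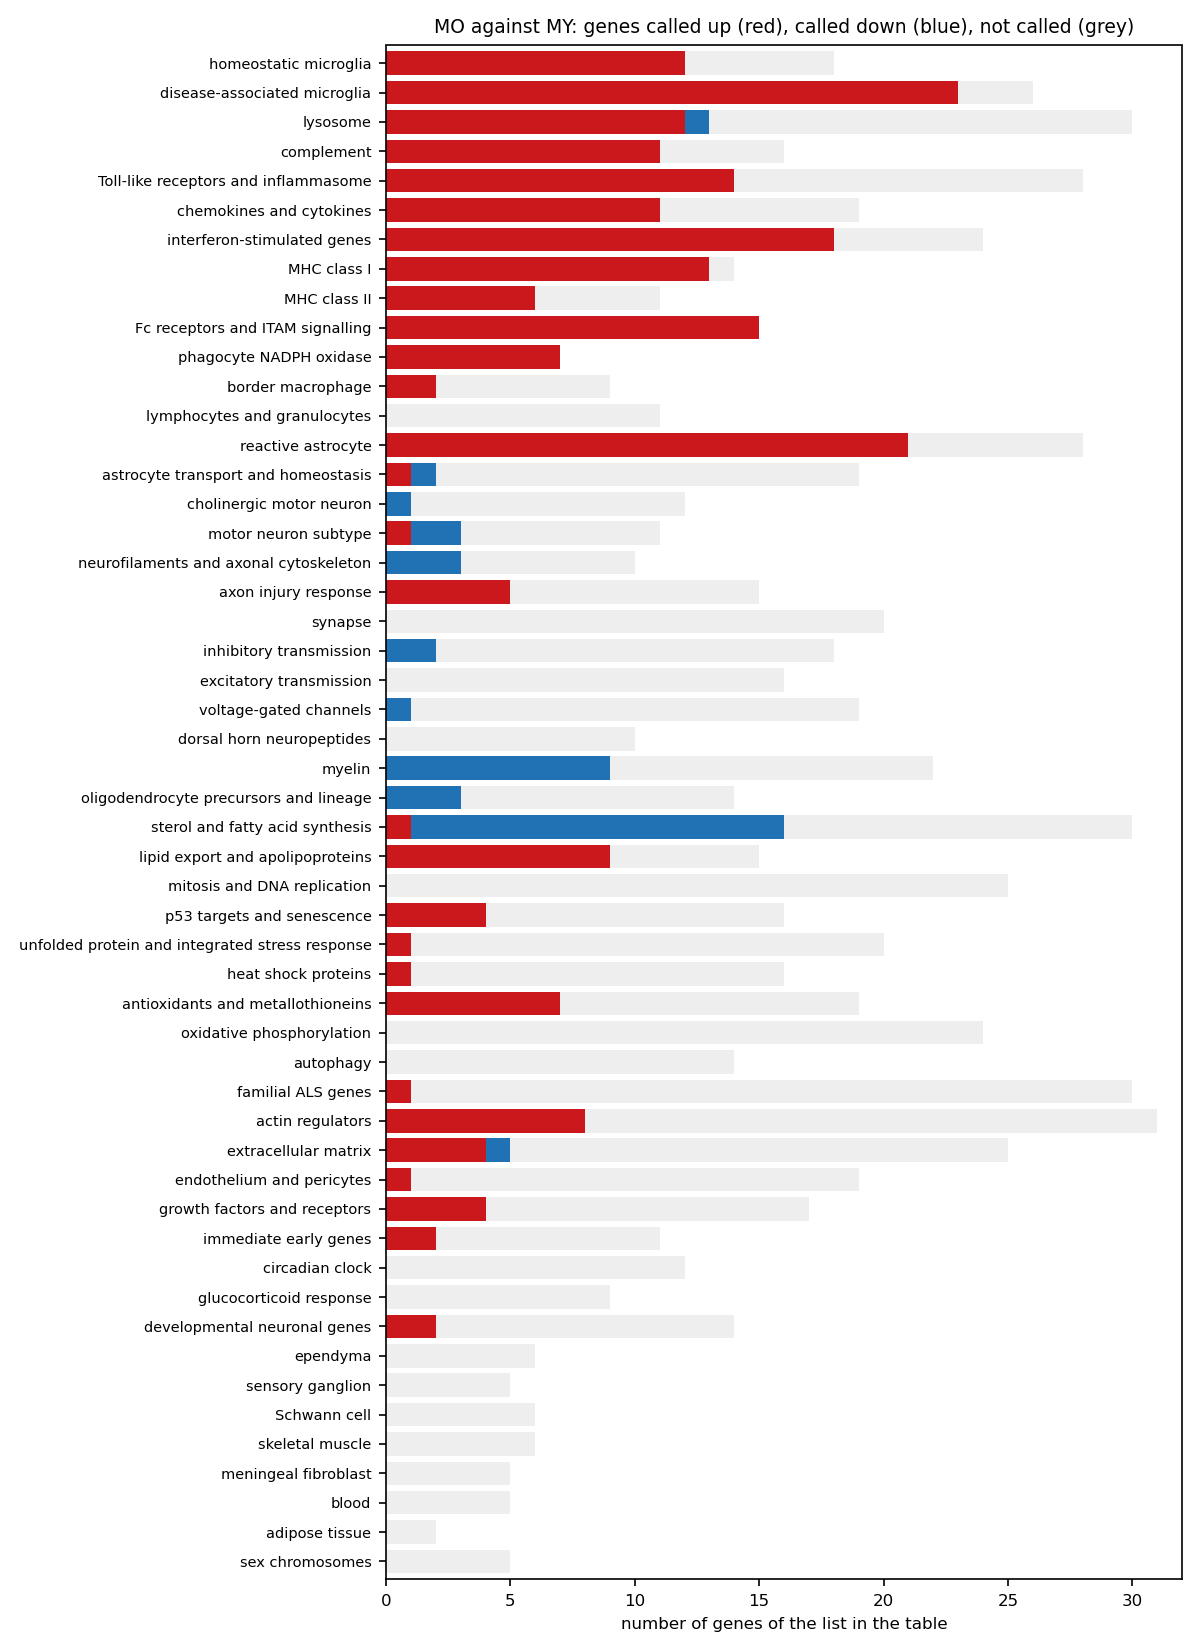
Number of genes in each of 52 lists (horizontal axis, genes) that were called up (red), called down (blue) or not called (grey) between the 3 MY and the 5 MO mice, as in the disease-associated microglia list with 23 of 26 genes up. A call needed an FDR not above 0.05 and a fold change of 1.5 or more. Lists were chosen with earlier results of these data known.

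Microglia are the resident macrophages of the cord. At rest they carry the purine receptor P2RY12 and the membrane protein TMEM119, and near dying cells or lipid debris they take on a phagocytic state that depends on the lipid receptor TREM2. Bulk tissue cannot tell more microglia from more RNA per microglial cell, and the same holds for fewer cells and less RNA in every cell type below.

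*Trem2* (chr17:48346401-48354147, plus strand), the receptor for lipids and apoptotic debris, was at 3.56, 3.81 and 3.60 in MY1 to MY3 and 6.13, 6.60, 7.02, 5.88 and 6.26 in MO1 to MO5. All MO mice stood more than 2 log2 units above every MY mouse, with a change of 2.72 (SE 0.23, FDR 0.000285; 2.93 in batch 1). *Tyrobp*, its signalling adaptor, measured 5.03, 5.42 and 5.34 in MY1 to MY3 and 7.50, 8.55, 8.80, 7.72 and 7.81 in MO1 to MO5, a change of 2.81 (SE 0.29, FDR 0.000515). The state these genes belong to was called up in 23 of 26 genes (median 2.07, batch 1 2.25), and the 3 genes without a call were *Fabp5*, *Timp2* and *Ank*. Its most abundant gene was *Apoe*. Summed FPKM of the list was 2724, 2944 and 2872 in MY1 to MY3 and 9578, 10828, 12999, 6330 and 8091 in MO1 to MO5, so MO4 was lowest and MO3 highest among the end-stage mice.

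The phagocyte glycoprotein *Cd68* read 2.56, 2.76 and 2.55 in MY1 to MY3 and 5.72, 6.04, 6.72, 5.11 and 5.73 in MO1 to MO5, with a change of 3.24 (SE 0.30, FDR 0.000317; 3.53 in batch 1). *Clec7a*, a receptor for fungal glucans that marks activated microglia, was at 0.88, 1.03 and 0.94 in MY1 to MY3 and 4.47, 5.35, 5.52, 4.27 and 4.24 in MO1 to MO5, a change of 3.82 (SE 0.31, FDR 0.00027; 4.16 in batch 1). Larger still were the lysozyme gene *Lyz2* (4.79), the cathepsin inhibitor *Cst7* (4.49) and the lysosomal glycoprotein *Gpnmb* (4.14), which were the 3 largest increases among genes whose groups did not overlap. *Lyz2* was lowest in the mice of batch 2, at 6.93 in MO4 and 7.42 in MO5 against at least 8.27 in MO1 to MO3, and its neighbour *Lyz1* is similar enough in sequence that reads may be shared. The surface antigen gene *Cd52* rose by 3.46 (SE 0.28, FDR 0.00027).

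Genes of resting microglia divided. *P2ry12* measured 4.02, 4.11 and 3.95 in MY1 to MY3 and 3.72, 4.34, 3.79, 4.19 and 3.97 in MO1 to MO5; the groups overlapped and the difference was -0.02 (SE 0.14, FDR 0.934). *Tmem119* read 3.39, 3.47 and 3.37 in MY1 to MY3 and 3.90, 4.27, 3.90, 3.82 and 4.15 in MO1 to MO5, a change of 0.60 (SE 0.10, FDR 0.00393) with no overlap. That call sat near the fold threshold, and without MO2 (4.27) the change was 0.54, without MO5 (4.15) 0.56 and without MY3 (3.37) 0.58, each too small to pass. *Aif1*, an actin-bundling protein of macrophages, rose by 1.88 (SE 0.26, FDR 0.00161; 1.96 in batch 1). Of 18 such genes 12 were called up (median 0.89, batch 1 0.95) and 0 down. The growth factor *Csf1*, on which microglia depend, rose by 0.65 (SE 0.08, FDR 0.00108), while *Il34*, the other ligand of the same receptor, differed by 0.05 (SE 0.07, FDR 0.678).

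Fc receptors and TREM2 signal through adaptors with tyrosine-based motifs (ITAM), which lead through kinases to phagocytosis. All 15 of 15 genes of this list were called up (median 1.17). *Fcgr3*, an activating receptor for antibody, was at 3.42, 3.56 and 3.44 in MY1 to MY3 and 5.81, 5.88, 5.68, 5.17 and 5.25 in MO1 to MO5, a change of 2.09 (SE 0.17, FDR 0.00027; 2.32 in batch 1). The adaptor *Fcer1g* rose by 2.38 (SE 0.21, FDR 0.000314). The inhibitory receptor *Fcgr2b* (chr1:170958617-170976547, minus strand), a near neighbour of *Fcgr3* (chr1:171051174-171064935, minus strand) and *Fcgr4*, measured 1.59, 1.5 and 1.67 in MY1 to MY3 and 4.86, 4.64, 4.83, 3.62 and 4.22 in MO1 to MO5, a change of 2.85 (SE 0.27, FDR 0.000331; 3.19 in batch 1). *Fcgr1* and *Fcgr4* rose by 1.38 and 1.26. MO4 was lowest of the MO mice for *Fcgr3* and *Fcgr2b*, and no value of the groups overlapped in any of these genes.

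GAGGAAGT, a form of the site bound by the myeloid factor PU.1, was counted on both strands in the 300 bases around the transcription start. It lay in 4 of 13 promoters of the Fc receptor list (30.8%; *Fcgr4*, *Inpp5d*, *Vav1*, *Pik3cg*), in 1 of 21 of the disease-associated list (4.76%; *Spp1*), in 0 of 11 of the resting list and in 3.28% of all promoters. These genes are named because they hold the motif and were chosen after it was counted. The promoter of *Ctss*, a macrophage protease described next, is shown because it holds a match, which is printed in capitals; it spans chr3:95526536-95526835 on the plus strand.

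Ctss: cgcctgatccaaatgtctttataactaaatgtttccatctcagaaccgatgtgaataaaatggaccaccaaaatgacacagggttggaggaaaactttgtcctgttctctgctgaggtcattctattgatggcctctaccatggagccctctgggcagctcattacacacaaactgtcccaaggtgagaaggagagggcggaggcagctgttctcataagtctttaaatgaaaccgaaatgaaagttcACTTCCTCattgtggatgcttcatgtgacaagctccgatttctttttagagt

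Lysosomes digest what microglia take up, and cathepsins are their proteases. Cathepsin S, from *Ctss* (chr3:95526786-95556403, plus strand), also trims the invariant chain of MHC class II. *Ctss* read 6.13, 6.29 and 6.24 in MY1 to MY3 and 8.58, 8.89, 8.97, 8.08 and 8.10 in MO1 to MO5, a change of 2.30 (SE 0.22, FDR 0.000331; 2.59 in batch 1). *Ctsz* and *Ctsh*, further cathepsins, rose by 2.04 (SE 0.18, FDR 0.000302) and 1.87 (SE 0.13, FDR 0.000203). *Grn* codes for progranulin, whose loss causes frontotemporal dementia, and was at 4.61, 4.62 and 4.58 in MY1 to MY3 and 6.45, 6.67, 6.80, 6.13 and 6.41 in MO1 to MO5. All MO values of *Grn* lay above all MY values, and the change was 1.89 (SE 0.13, FDR 0.000204; 2.04 in batch 1). *Lamp1*, a protein of every lysosome membrane, differed by 0.13 (SE 0.05, FDR 0.0935) and was not called. Of 30 lysosomal genes 12 were called up and 1 down (median 0.40), the latter being *Ctsk* (-0.87), named after its value was seen. TCACGTGA, the element bound by the lysosomal regulator TFEB, was in 4 of 24 promoters (16.7%) and in 1.01% of all promoters, and the 4 genes, *Gla*, *Mcoln1*, *Atp6v0d1* and *Atp6v1a*, named for the motif after it was counted, were not called.

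Complement tags synapses and debris for removal, and its recognition molecule C1q is made mostly by microglia from 3 neighbouring genes. *C1qa* (chr4:136895917-136898803, minus strand) measured 5.17, 5.34 and 5.34 in MY1 to MY3 and 8.06, 8.37, 8.73, 7.72 and 7.96 in MO1 to MO5. Group means were 5.28 (SD 0.10) and 8.17 (SD 0.39), and the change was 2.88 (SE 0.20, FDR 0.000203; 3.10 in batch 1). *C1qb* (chr4:136880129-136886187, minus strand) and *C1qc* (chr4:136889804-136893065, minus strand) rose by 2.64 and 2.59. *C3*, the central component, and *C4b*, which astrocytes and oligodendrocytes make, read 4.30, 4.44 and 4.47 and 3.89, 4.01 and 3.96 in MY1 to MY3 and 6.54, 6.40, 6.56, 5.73 and 6.13 and 6.68, 6.55, 6.67, 5.87 and 6.06 in MO1 to MO5. These were changes of 1.87 (SE 0.18, FDR 0.000365; 2.10 in batch 1) and 2.41 (SE 0.19, FDR 0.000247; 2.68 in batch 1), and for both genes MO4 and then MO5 were the lowest end-stage mice, with no overlap with MY. *C4b* shares nearly all its sequence with *C4a*, so the split of reads between them is uncertain. Of 16 complement genes 11 were called up (median 1.41) and 0 down, and the 5 without a call were *Cfb*, *Cfp*, *Cd59a*, *C2* and *Cfi*.

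Innate immune sensing starts with Toll-like receptors, and inflammasomes then activate caspase 1, which matures interleukin 1. *Tlr2*, which senses lipoproteins and released cell contents, read 1.55, 1.58 and 1.41 in MY1 to MY3 and 3.24, 3.48, 3.29, 2.88 and 3.01 in MO1 to MO5, a change of 1.67 (SE 0.13, FDR 0.000212; 1.82 in batch 1). *Cd14*, its co-receptor, was at 1.53, 1.47 and 1.45 in MY1 to MY3 and 3.36, 3.60, 3.50, 3.04 and 3.30 in MO1 to MO5, a change of 1.87 (SE 0.11, FDR 0.000203). *Tlr7*, a sensor of RNA, rose by 1.59. The protease gene *Casp1* rose by 0.93 (SE 0.08, FDR 0.00027) and the adaptor *Pycard* by 1.35 (SE 0.14, FDR 0.000485), with every MO mouse above every MY mouse in each of these genes. Of 28 sensing genes 14 were called up (median 0.58) and 0 down.

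The phagocyte oxidase makes superoxide at the membrane of phagosomes. Its catalytic subunit *Cybb* (chrX:9435252-9487771, minus strand) measured 0.32, 0.25 and 0.30 in MY1 to MY3 and 2.85, 2.58, 3.21, 1.99 and 2.38 in MO1 to MO5. Young cord therefore held close to none of it (mean 0.29, SD 0.03), all end-stage mice held more, MO4 least, and the change was 2.31 (SE 0.23, FDR 0.000446; 2.59 in batch 1). The partner subunit *Cyba* rose by 2.42 (SE 0.19, FDR 0.000246). All 7 of 7 oxidase genes were called up (median 1.44), among them the cytosolic subunit *Ncf1* (1.44) and the proton channel *Hvcn1* (1.63).

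Chemokines attract leukocytes, and microglia release several within hours of activation. *Ccl3* read 0.81, 0.89 and 0.94 in MY1 to MY3 and 2.81, 4.09, 4.22, 3.38 and 3.29 in MO1 to MO5, a change of 2.67 (SE 0.30, FDR 0.00064; 2.82 in batch 1). *Ccl4* and *Ccl6* lie within 100 kb of it on chromosome 11 and rose by 2.23 and 2.56. *Ccl2*, which draws monocytes, was at 0.41, 0.42 and 0.53 in MY1 to MY3 and 1.28, 2.05, 1.66, 1.98 and 1.53 in MO1 to MO5, a change of 1.24 (SE 0.16, FDR 0.0013). *Tnf* measured 0.03, 0.07 and 0.03 in MY1 to MY3 and 0.13, 0.50, 0.40, 0.32 and 0.36 in MO1 to MO5; its difference of 0.30 (SE 0.07, FDR 0.0208) was under the fold threshold in a gene near 0. Of 19 genes 11 were called up (median 0.91) and 0 down. Among growth factors 4 of 17 were called up (median 0.16) and 0 down, with *Cntf*, a survival factor for motor neurons made by astrocytes and Schwann cells, at 1.03 (SE 0.13, FDR 0.00102), *Fgf2*, a mitogen for glia, at 0.79 (SE 0.16, FDR 0.0083) and the receptor *Tgfbr2* at 1.01.

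Interferons, released by infected or damaged tissue, induce antiviral genes in most cell types. *Bst2* (chr8:71534255-71537456, minus strand), which tethers budding virus to the cell, read 2.39, 2.90 and 2.80 in MY1 to MY3 and 4.41, 4.62, 4.83, 4.59 and 4.56 in MO1 to MO5. Its change was 1.90 (SE 0.13, FDR 0.000203; 1.92 in batch 1), and no MY mouse reached the lowest MO mouse. *Ifitm3*, which blocks viral entry, rose by 1.19 (SE 0.11, FDR 0.000317). *Ifi27l2a*, an interferon-induced mitochondrial protein, was at 1.71, 3.10 and 2.14 in MY1 to MY3 and 3.83, 5.00, 4.01, 4.81 and 4.56 in MO1 to MO5, a change of 2.12 (SE 0.36, FDR 0.00385); MY2 was the highest of the young mice and the groups did not overlap. The secreted *Lgals3bp* rose by 2.45 (SE 0.19, FDR 0.000247). Interferon-induced genes were called up in 18 of 24 (median 0.74) and down in 0.

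GAAANNGAA, a short form of the interferon-stimulated response element, lay on either strand in 11 of 19 promoters of this list (57.9%) and in 2317 of 27025 of all promoters (8.57%). The 11 holders were all called up, as were 5 of the 8 genes whose promoters lacked it. Its share in the MHC class I list was 2 of 12 (16.7%; *B2m* and *H2-T23*, named after the count). Promoters of *Ifit3*, a gene that blocks translation of viral RNA, *Isg15*, which codes for a ubiquitin-like protein, and *Bst2* are shown because they hold more than 1 match. They span chr19:34583279-34583578 on the plus strand, chr4:156200769-156201068 on the minus strand and chr8:71537423-71537722 on the minus strand, with matches in capitals. *Isg15* was called in all mice (0.71) but not in batch 1 alone (0.55).

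Ifit3: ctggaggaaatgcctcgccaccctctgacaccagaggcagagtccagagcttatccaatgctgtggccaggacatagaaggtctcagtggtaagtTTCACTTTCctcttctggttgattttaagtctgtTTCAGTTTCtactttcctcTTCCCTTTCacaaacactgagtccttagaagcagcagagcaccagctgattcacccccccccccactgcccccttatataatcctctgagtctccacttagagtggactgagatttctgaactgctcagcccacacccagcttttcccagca

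Isg15: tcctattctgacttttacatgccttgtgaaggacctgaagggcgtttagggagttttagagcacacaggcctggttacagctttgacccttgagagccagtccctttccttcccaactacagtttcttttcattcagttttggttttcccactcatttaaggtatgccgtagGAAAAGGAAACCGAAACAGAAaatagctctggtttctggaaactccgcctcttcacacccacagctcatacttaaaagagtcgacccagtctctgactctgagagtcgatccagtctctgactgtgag

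Bst2: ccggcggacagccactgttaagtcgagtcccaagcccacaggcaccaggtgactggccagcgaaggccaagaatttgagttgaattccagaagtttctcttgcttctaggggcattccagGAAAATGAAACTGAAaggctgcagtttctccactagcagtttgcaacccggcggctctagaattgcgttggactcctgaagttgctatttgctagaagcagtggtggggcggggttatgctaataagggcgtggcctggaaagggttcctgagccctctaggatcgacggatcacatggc

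MHC class I molecules present peptides made by the proteasome to CD8 T cells, and on neurons they also shape synapses. *H2-K1* measured 4.46, 4.56 and 4.56 in MY1 to MY3 and 6.28, 6.34, 6.35, 5.98 and 5.89 in MO1 to MO5, a change of 1.64 (SE 0.12, FDR 0.000203; 1.80 in batch 1). *B2m*, the shared light chain, read 7.27, 7.37 and 7.10 in MY1 to MY3 and 8.74, 9.13, 9.14, 8.74 and 8.54 in MO1 to MO5, a change of 1.61 (SE 0.14, FDR 0.000314). *H2-D1* and *H2-Q4* rose by 1.37 and 1.54, with the caution that class I genes are alike in sequence. *Psmb8*, the inducible proteasome subunit, rose by 1.74 (SE 0.12, FDR 0.000203). Of 14 class I genes 13 were called up (median 0.90), the exception being *Psmb10* (0.28). MO5 had the lowest end-stage value of *H2-K1* and *B2m*.

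MHC class II presents peptides to CD4 T cells and is held by few cells of healthy cord. *Cd74*, the invariant chain, was at 1.40, 1.57 and 1.24 in MY1 to MY3 and 3.24, 3.35, 4.21, 3.61 and 3.04 in MO1 to MO5. The lowest MO mouse was well above the highest MY mouse, and the change was 2.09 (SE 0.24, FDR 0.000691; 2.20 in batch 1). *H2-Ab1* rose by 1.04 (SE 0.20, FDR 0.00626). *H2-Aa* measured 0.82, 1.12 and 0.80 in MY1 to MY3 and 1.12, 1.83, 2.52, 2.36 and 1.38 in MO1 to MO5, so that MO1 was barely above MY2, and its difference was 0.93 (SE 0.31, FDR 0.0612); without MO1 it was 1.11 with an FDR of 0.0178, which passes. The list was called up in 6 of 11 genes (median 0.93), among them *H2-DMb1* (1.27), which loads peptides, and the co-stimulator *Cd86* (1.34).

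Macrophages of the meninges and vessels, and lymphocytes that enter from blood, carry genes that microglia lack. *Mrc1*, the mannose receptor of border macrophages, read 0.28, 0.29 and 0.34 in MY1 to MY3 and 0.57, 0.50, 0.49, 0.51 and 0.41 in MO1 to MO5; the difference of 0.19 (SE 0.04, FDR 0.0142) was under the fold threshold, and *Cd163*, the haemoglobin receptor, differed by 0.08 (SE 0.06, FDR 0.399). *Ms4a7* was at 0.22, 0.28 and 0.25 in MY1 to MY3 and 1.94, 2.00, 2.90, 0.91 and 2.18 in MO1 to MO5, a change of 1.73 (SE 0.36, FDR 0.00923; 2.03 in batch 1), with MO4 lowest and MO3 highest. *Stab1*, a scavenger receptor, measured 1.06, 1.02 and 1.05 in MY1 to MY3 and 2.09, 1.60, 1.68, 1.25 and 1.92 in MO1 to MO5 and rose by 0.66 (SE 0.16, FDR 0.0193), but the call was lost without MO1 (0.57) and without MY1, MY2 or MY3 (FDR 0.0664, 0.0657 and 0.0658). These were the 2 calls among 9 border genes (median 0.19), whose summed FPKM was 2.74, 3.38 and 3.52 in MY1 to MY3 and 9.03, 8.51, 12.6, 5.53 and 9.42 in MO1 to MO5.

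Of 18 lymphocyte and granulocyte genes listed, the table holds 11. In limma, 0 of these were called, 0 had an FDR of at most 0.05 and 1 had an unadjusted P below 0.05 (median 0.04). The T cell gene *Cd3e* was at 0.01, 0.06, 0.08, 0.04 and 0.16 in MO1 to MO5, and *Cd3d* differed by 0.05 (SE 0.05, FDR 0.572). Summed FPKM was 5.92, 3.18 and 3.05 in MY1 to MY3 and 7.38, 8.42, 1.51, 4.54 and 1.77 in MO1 to MO5, with *S100a8*, a granulocyte gene, most abundant. Rises in MHC genes thus stood beside T cell receptor complex genes close to 0.

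Astrocytes answer injury with intermediate filaments and secreted inhibitors of proteases, and at rest they clear glutamate and water. *Gfap* (chr11:102887336-102900912, minus strand), their main filament, read 9.81, 9.89 and 9.82 in MY1 to MY3 and 10.94, 11.41, 11.25, 10.90 and 11.02 in MO1 to MO5. Every MO mouse exceeded every MY mouse (means 9.84, SD 0.04, and 11.10, SD 0.22), and the change was 1.26 (SE 0.12, FDR 0.000317; 1.36 in batch 1). *Vim*, the filament of immature and reactive astrocytes, was at 5.55, 5.62 and 5.66 in MY1 to MY3 and 8.10, 8.31, 8.40, 7.79 and 7.92 in MO1 to MO5, a change of 2.49 (SE 0.13, FDR 0.000203; 2.66 in batch 1). *Serpina3n*, a serine protease inhibitor, measured 5.53, 5.47 and 5.52 in MY1 to MY3 and 8.97, 8.86, 8.88, 7.90 and 8.39 in MO1 to MO5; MO4 and then MO5 were the lowest end-stage mice, and the change was 3.09 (SE 0.23, FDR 0.000212; 3.40 in batch 1). The metalloprotease inhibitor *Timp1* and the small heat shock protein *Hspb1* rose by 3.18 (SE 0.19, FDR 0.000203) and 2.34 (SE 0.21, FDR 0.000314), and the hyaluronan receptor *Cd44* by 1.19 (SE 0.09, FDR 0.000247). The reactive list was called up in 21 of 28 genes (median 1.14) and down in 0.

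Homeostatic astrocyte genes moved far less, with 1 of 19 called up, 1 called down and a median of 0.10. *Slc1a2*, the main glutamate transporter, read 8.04, 7.93 and 7.90 in MY1 to MY3 and 8.12, 8.01, 7.89, 7.91 and 7.95 in MO1 to MO5, with overlapping groups and a difference of 0.02 (SE 0.06, FDR 0.864). *Aqp4*, the water channel, was higher in all MO mice, but its difference of 0.44 (SE 0.11, FDR 0.0173) was under the fold threshold. *Aldh1l1*, a folate enzyme, rose by 0.62 (SE 0.10, FDR 0.00352), and without MO1 (5.63) the change was 0.56, under the threshold. *Slc7a10*, a transporter of serine and glycine, was at 5.64, 5.66 and 5.62 in MY1 to MY3 and 4.47, 5.01, 5.17, 5.41 and 5.11 in MO1 to MO5, a change of -0.61 (SE 0.18, FDR 0.0364; -0.76 in batch 1). MO1 was lowest and MO4 closest to the young mice. That call was lost without MO1 (-0.47), and by FDR without MO2 (0.0689), MO3 (0.0536), MO5 (0.0567) and MY1, MY2 or MY3 (0.109, 0.106 and 0.1).

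**Figure D2:**
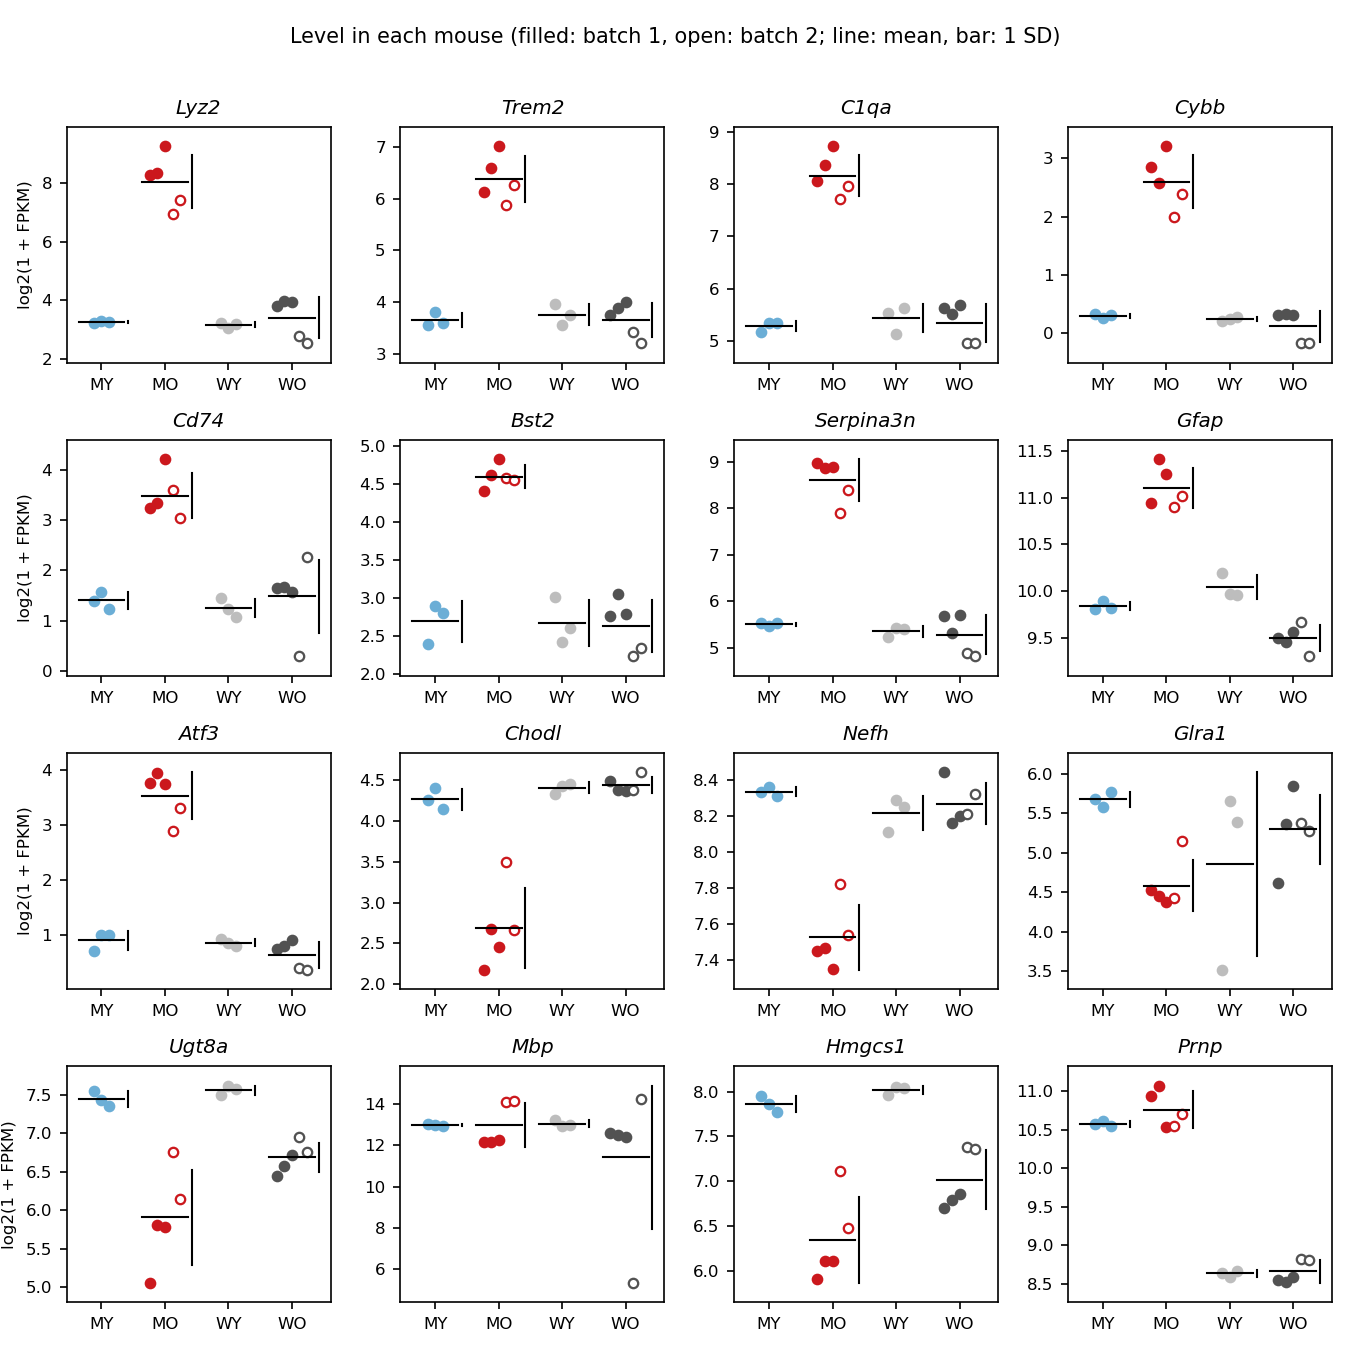
Level of 16 genes as log2(1 + FPKM) (vertical axis) in each mouse of the MY, MO, WY and WO groups, such as *Trem2* between 3.56 and 3.81 in MY and between 5.88 and 7.02 in MO. Filled points are batch 1, open points batch 2, lines group means and bars 1 SD.

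Motor neurons use acetylcholine at the muscle, and the largest of them, which drive fast muscle fibres, are lost early in models of this disease. *Chodl* (chr16:78930948-78951733, plus strand), a marker of those fast motor neurons, measured 4.25, 4.40 and 4.14 in MY1 to MY3 and 2.18, 2.68, 2.45, 3.49 and 2.67 in MO1 to MO5. All MO values were lower than all MY values, MO4 being closest to them, and the change was -1.57 (SE 0.25, FDR 0.00312; -1.83 in batch 1). *Mmp9*, a protease held by the same neurons, read 2.29, 2.45 and 2.26 in MY1 to MY3 and 1.54, 1.58, 1.5, 1.70 and 1.79 in MO1 to MO5, a change of -0.71 (SE 0.08, FDR 0.000566; -0.79 in batch 1). *Calca*, which codes for calcitonin gene-related peptide, rose instead: it was at 5.71, 5.92 and 5.58 in MY1 to MY3 and 6.83, 7.60, 6.22, 6.61 and 6.95 in MO1 to MO5, a change of 1.1 (SE 0.26, FDR 0.0171; 1.15 in batch 1), and the call was lost without MY1 (FDR 0.0653) or MY3 (0.0719). Of 11 subtype genes 1 was called up and 2 down (median -0.25).

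*Chat*, the enzyme that makes acetylcholine, measured 3.69, 3.78 and 3.59 in MY1 to MY3 and 3.39, 3.25, 3.14, 3.40 and 3.20 in MO1 to MO5. The groups did not overlap, but the difference of -0.41 (SE 0.07, FDR 0.0053) was under the fold threshold, as was that of the choline transporter *Slc5a7* at -0.39 (SE 0.10, FDR 0.0251). *Lhx4*, a developmental factor of motor neurons, read 1.24, 1.2 and 1.33 in MY1 to MY3 and 0.58, 0.68, 0.56, 0.55 and 0.63 in MO1 to MO5, a change of -0.66 (SE 0.05, FDR 0.000212), and was the 1 call among 12 cholinergic genes (median -0.29). Of these 12 genes 8 were below 0 with an FDR of at most 0.05.

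Neurofilaments set the calibre of large axons. *Nefh* (chr11:4938754-4948064, minus strand), the heavy subunit, was at 8.33, 8.36 and 8.31 in MY1 to MY3 and 7.45, 7.47, 7.35, 7.82 and 7.54 in MO1 to MO5. Means were 8.33 (SD 0.02) and 7.53 (SD 0.18), every MO mouse was lower than every MY mouse, and the change was -0.81 (SE 0.09, FDR 0.000744; -0.91 in batch 1). *Nefm* measured 9.24, 9.17 and 9.29 in MY1 to MY3 and 8.51, 8.47, 8.33, 8.62 and 8.32 in MO1 to MO5, a change of -0.78 (SE 0.07, FDR 0.000357; -0.79 in batch 1). *Nefl* fell by 0.74 (SE 0.11, FDR 0.00219; by 0.85 in batch 1), with MO4 again nearest to the young mice at 9.91. The annotated span of *Nefm* (chr14:68082590-68124846, minus strand) covers *Nefl* (chr14:68083863-68089095, plus strand) on the other strand, and it is not stated whether strand was used in counting. These were the 3 calls of the list of 10 axonal cytoskeleton genes, with 0 up and a median of -0.35.

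Injured axons switch on a growth programme led by the factor ATF3. *Atf3* (chr1:191170296-191218039, minus strand) read 0.70, 1.00 and 1.00 in MY1 to MY3 and 3.76, 3.94, 3.74, 2.89 and 3.30 in MO1 to MO5. Young cord was near 1 or lower, all end-stage mice were far above, MO4 lowest, and the change was 2.62 (SE 0.23, FDR 0.000297; 2.91 in batch 1). *Sprr1a*, a small proline-rich protein induced in severed axons, was at 0.86, 0.89 and 0.87 in MY1 to MY3 and 4.95, 4.88, 4.48, 3.88 and 4.00 in MO1 to MO5, a change of 3.56 (SE 0.25, FDR 0.000203; 3.90 in batch 1). The endopeptidase *Ecel1* rose by 0.71 (SE 0.13, FDR 0.00633) and the urokinase receptor *Plaur* by 1.43 (SE 0.13, FDR 0.000317). *Gadd45a*, a damage-inducible gene, rose by 0.67 (SE 0.11, FDR 0.00365), but by only 0.55 without MY2 (3.06), under the threshold. *Sox11* differed by 0.28 (SE 0.06, FDR 0.00902), also under it. Of 15 injury genes 5 were called up (median 0.32) and 0 down.

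Synapses pass signals from sensory fibres and interneurons to motor neurons, and genes of vesicles and receptors stand for them here. In limma, 0 of 20 synapse genes were called, while 15 had an FDR of at most 0.05 below 0, against 12.5% of all genes, 0 above 0, and 17 had an unadjusted P below 0.05, against 36.7% (median -0.28). *Snap25*, a vesicle fusion protein, measured 10.53, 10.44 and 10.50 in MY1 to MY3 and 10.24, 10.33, 10.18, 10.28 and 10.08 in MO1 to MO5 and differed by -0.27 (SE 0.06, FDR 0.0134), and *Syp*, a vesicle protein, by -0.12 (SE 0.04, FDR 0.036). Of 16 excitatory genes 0 were called by limma, 9 had an FDR of at most 0.05 below 0 and 13 an unadjusted P below 0.05 (median -0.28). Here *Slc17a6*, the vesicular glutamate transporter, differed by -0.29 (SE 0.05, FDR 0.00591) and the receptor *Gria2* by -0.23 (SE 0.08, FDR 0.0633).

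Inhibition in cord uses glycine as well as GABA. *Glra1*, the adult glycine receptor, read 5.68, 5.58 and 5.77 in MY1 to MY3 and 4.53, 4.45, 4.37, 4.42 and 5.15 in MO1 to MO5. MO5 stood apart from the 4 other MO mice but below every MY mouse, and the change was -1.09 (SE 0.17, FDR 0.00251; -1.23 in batch 1). *Slc6a5*, the glycine transporter of inhibitory terminals, was at 5.81, 5.77 and 5.93 in MY1 to MY3 and 4.84, 4.90, 5.00, 4.81 and 5.43 in MO1 to MO5, a change of -0.84 (SE 0.13, FDR 0.00298; -0.93 in batch 1), again with MO5 nearest to the young mice; the call was lost with all 4 groups in 1 fit (FDR 0.0707). *Gad1*, which makes GABA, differed by -0.11 (SE 0.05, FDR 0.175), and the GABA receptor subunit *Gabra2* by -0.41 (SE 0.14, FDR 0.0678), with MO5 apart at 4.69 against at least 5.21. *Glra1* and *Slc6a5* were the 2 calls among 18 inhibitory genes (median -0.27). In *Glra1* wild-type mice also varied widely. They were at 3.52, 5.65 and 5.39 in WY1 to WY3 and 4.62, 5.36, 5.84, 5.38 and 5.28 in WO1 to WO5. The difference of the age changes of *Glra1*, mutant minus wild-type, was not called (-1.53, FDR 0.062).

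Potassium channels end action potentials, and the muscarinic receptor M2 tunes motor neuron firing. Of 19 channel genes 1 was called down and 0 up (median -0.34), and 13 had an FDR of at most 0.05. With batch 1 alone 4 were called down. The sodium channel *Scn1a* and the potassium channel *Kcna1* differed by -0.49 (SE 0.06, FDR 0.00117) and -0.41 (SE 0.06, FDR 0.00196), under the fold threshold. Outside the lists, the leak channel *Kcnk9* fell by 0.90 (SE 0.17, FDR 0.00635) and the receptor *Chrm2* by 0.87 (SE 0.08, FDR 0.000317). Among 10 dorsal horn peptide genes limma called 0, with 3 at an FDR of at most 0.05, all above 0, and 3 at an unadjusted P below 0.05, against 25.6% and 36.7% of all genes (median 0.19); *Tac1* differed by 0.28 (SE 0.08, FDR 0.034) and *Penk* by -0.00 (SE 0.05, FDR 0.981). Developmental neuronal genes gave 2 calls up of 14 (median -0.08), *Nnat* (0.77), an imprinted membrane protein, and *Igfbpl1* (0.75), while *Dcx*, a marker of new neurons, differed by -0.11 (SE 0.08, FDR 0.343).

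Oligodendrocytes make myelin for life, at a rate that declines from the weeks after birth. Age and stage changed together between MY and MO and cannot be told apart in this comparison. *Ugt8a* (chr3:125865271-125938619, minus strand), which makes the myelin lipid galactosylceramide, measured 7.55, 7.43 and 7.35 in MY1 to MY3 and 5.06, 5.81, 5.78, 6.76 and 6.14 in MO1 to MO5. All MO mice were lower than all MY mice, MO4 least so, and the change was -1.53 (SE 0.31, FDR 0.00876; -1.89 in batch 1). *Fa2h*, which hydroxylates the same lipid, fell by 1.13 (SE 0.17, FDR 0.00233), *Enpp6*, a marker of newly formed oligodendrocytes, by 1.13 (FDR 0.00306) and the myelin protein *Mal* by 0.99 (FDR 0.0027).

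*Mbp*, the basic protein of compact myelin, lay between 12.93 and 13.03 in the MY mice and was at 12.16, 12.16, 12.24, 14.11 and 14.14 in MO1 to MO5. The batch 1 mice lay below every MY mouse and the batch 2 mice above, so the pooled difference was -0.02 (SE 0.54, FDR 0.982), while batch 1 alone gave -0.80 with an FDR of 0.000212, which passes. All 5 mice were at end stage. In the wild-type mice of batch 2, WO5 was at 14.22 and WO4 apart at 5.36, against 12.61, 12.49 and 12.42 in WO1 to WO3 of batch 1. Myelin genes were called down in 9 of 22 (median -0.60), and in 14 of 22 with batch 1 alone (median -0.81). Summed FPKM, to which *Mbp* adds most, was 17677, 17040 and 16746 in MY1 to MY3, 8489, 9569 and 9761 in MO1 to MO3 and 24721 and 23840 in MO4 and MO5.

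Precursors of oligodendrocytes gave 3 calls down of 14 (median -0.43), and 5 with batch 1 alone. *Pdgfra*, the growth factor receptor of precursors, differed by -0.07 (SE 0.07, FDR 0.525), whereas *Gpr17*, a receptor of cells on the way to myelination, read 4.57, 4.48 and 4.48 in MY1 to MY3 and 3.30, 3.58, 3.61, 3.97 and 4.41 in MO1 to MO5, a change of -0.74 (SE 0.22, FDR 0.039; -1.02 in batch 1). That call was lost without MO2 (FDR 0.0792), MO3 (0.0806) or MY1, MY2 or MY3 (0.127, 0.1 and 0.105). *Tnr*, a matrix glycoprotein of precursors and nodes, fell by 0.81 (SE 0.09, FDR 0.000722).

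Myelin needs cholesterol, which cord makes itself through the mevalonate pathway. *Hmgcs1* (chr13:119690379-119708260, plus strand), an early enzyme of that path, was at 7.95, 7.86 and 7.77 in MY1 to MY3 and 5.91, 6.12, 6.12, 7.12 and 6.48 in MO1 to MO5. Means were 7.86 (SD 0.09) and 6.35 (SD 0.48), MO4 was again the end-stage mouse nearest to MY, and the change was -1.51 (SE 0.24, FDR 0.0031; -1.81 in batch 1). *Idi1* and *Cyp51*, later enzymes, changed by -1.15 (SE 0.22, FDR 0.00699) and -0.95 (SE 0.18, FDR 0.00689). The list was called down in 15 of 30 genes and up in 1 (median -0.57), and 25 were below 0 with an FDR of at most 0.05, against 12.5% of all genes. The gene called up was *Srebf1* (0.66), a regulator of lipid synthesis, named after its value was seen. Batch 1 alone gave 19 down and 1 up.

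TCACCCCA, a sterol response element, lay in 2 of 21 promoters of this list (9.52%; *Hmgcs1* and *Srebf2*, named for the motif after it was counted) and in 1.47% of all promoters. CCAAT, the site of NF-Y, which works beside it, lay in 17 of 21 (81%) against 37.9% of all promoters, and in 10 of 12 of the MHC class I list (83.3%). The promoters of *Hmgcs1* (chr13:119690101-119690400, plus strand) and *Idi1* (chr13:8885356-8885655, plus strand) are shown because both genes fell and both hold CCAAT on either strand, printed in capitals together with the sterol element of *Hmgcs1*.

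Hmgcs1: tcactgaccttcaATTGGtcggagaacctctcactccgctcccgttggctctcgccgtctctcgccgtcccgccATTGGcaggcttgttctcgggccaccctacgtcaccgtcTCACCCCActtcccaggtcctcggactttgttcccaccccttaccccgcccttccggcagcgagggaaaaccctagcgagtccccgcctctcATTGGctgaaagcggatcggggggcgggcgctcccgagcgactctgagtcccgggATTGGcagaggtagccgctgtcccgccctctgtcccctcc

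Idi1: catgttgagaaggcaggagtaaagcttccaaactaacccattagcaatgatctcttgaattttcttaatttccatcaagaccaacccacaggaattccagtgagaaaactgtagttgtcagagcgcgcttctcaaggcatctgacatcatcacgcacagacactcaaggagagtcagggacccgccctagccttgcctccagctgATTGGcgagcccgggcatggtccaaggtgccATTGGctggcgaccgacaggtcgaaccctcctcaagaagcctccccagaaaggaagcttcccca

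Cells that take up myelin debris must export its cholesterol. *Abca1*, the pump that loads it onto apolipoproteins, measured 2.54, 2.59 and 2.54 in MY1 to MY3 and 4.30, 4.18, 4.23, 3.33 and 3.94 in MO1 to MO5, a change of 1.44 (SE 0.20, FDR 0.0017; 1.68 in batch 1). *Apoc1* and *Apoc4* lie beside each other near *Apoe* (chr7:19689481-19692660, minus strand and chr7:19678083-19681479, minus strand) and rose by 2.12 (SE 0.36, FDR 0.00368) and 2.69 (SE 0.42, FDR 0.00274), with MO4 apart from the other MO mice at 4.15 against at least 5.54 and at 1.34 against at least 2.91. *Apod*, a lipid carrier of glia, was at 8.50 to 8.57 in the MY mice, lowest in MO4 among the MO mice (9.19) and rose by 1.57 (SE 0.34, FDR 0.0106; 1.89 in batch 1). *Apobec1*, an RNA-editing enzyme, rose by 1.64. The list was called up in 9 of 15 genes (median 0.84) and down in 0.

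Misfolded proteins in the endoplasmic reticulum or cytosol induce chaperones. *Hspa5*, the main chaperone of the reticulum, differed by -0.21 (SE 0.13, FDR 0.301), and *Ddit3*, which promotes death under stress, by 0.52 (SE 0.09, FDR 0.00481), under the fold threshold. *Atf5*, a factor of the same response, rose by 0.61 (SE 0.13, FDR 0.00958), and the call was lost without MO1 (0.53) or MY2 (0.56). It was the 1 call up among 20 such genes (median -0.04). Heat shock proteins gave 1 call up of 16 (median -0.10), *Hspb1*, while the inducible *Hspa1a* differed by 0.01 (SE 0.08, FDR 0.928). Autophagy genes gave 0 calls of 14 in limma, with 2 above 0 and 1 below 0 at an FDR of at most 0.05 and 4 at an unadjusted P below 0.05 (median -0.01); the cargo receptor *Sqstm1* differed by 0.31 (SE 0.06, FDR 0.00564) and *Map1lc3b* by 0.05 (SE 0.05, FDR 0.578).

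DNA damage and oxidants act through p53 and NRF2. *Cdkn1a*, the p53 target that stops the cell cycle, read 4.82, 4.76 and 4.66 in MY1 to MY3 and 6.37, 5.38, 4.82, 4.41 and 5.56 in MO1 to MO5; MO1 was highest, MO4 lay below the MY mice, and the difference was 0.56 (SE 0.38, FDR 0.331). *Cdkn2a*, a marker of senescent cells, was at 0.09, 0.09 and 0.17 in MY1 to MY3 and 0.77, 0.98, 1.1, 0.64 and 0.86 in MO1 to MO5, a change of 0.76 (SE 0.09, FDR 0.00103). The death receptor *Fas*, the stress cytokine *Gdf15* and the death gene *Pmaip1* rose by 1.23, 0.90 and 0.74, and 4 of 16 p53 targets were called up (median 0.42). *Hmox1*, which degrades heme, measured 2.41, 2.07 and 2.60 in MY1 to MY3 and 3.51, 3.82, 4.22, 3.46 and 3.81 in MO1 to MO5, a change of 1.40 (SE 0.18, FDR 0.00122). *Mt1* and *Mt2*, metal-binding proteins from neighbouring genes, rose by 1.66 (SE 0.17, FDR 0.000492) and 1.37, the iron store *Ftl1* by 1.33 (SE 0.13, FDR 0.0004) and the peroxidase *Gpx1* by 0.77. Of 19 antioxidant genes 7 were called up (median 0.46) and 0 down.

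Respiration in mitochondria supplies the energy for long axons. In limma 0 of 24 nuclear genes of the respiratory chain were called, 1 had an FDR of at most 0.05 and 3 an unadjusted P below 0.05 (median 0.01). That gene was *Ndufs1*, a subunit of complex I, at -0.21 (SE 0.05, FDR 0.0166). Their mean level was 8.19, 8.26 and 8.23 in MY1 to MY3 and 8.05, 8.42, 8.19, 8.46 and 8.22 in MO1 to MO5, and *Cox4i1* differed by 0.12 (SE 0.07, FDR 0.302). Of 30 genes mutated in familial forms of the disease 10 were below 0 and 2 above 0 at an FDR of at most 0.05. The shares of all genes were 12.5% and 13.1%. With the fold threshold 1 gene was called up and 0 down (median -0.08). It was *Ang*, a ribonuclease secreted by motor neurons, which read 1.98, 1.60 and 2.04 in MY1 to MY3 and 3.26, 3.66, 3.36, 2.94 and 3.13 in MO1 to MO5, a change of 1.40 (SE 0.16, FDR 0.000732); it shares its locus with another ribonuclease gene. *Sod1* differed by 0.20 (SE 0.07, FDR 0.0909).

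*Pfn1* (chr11:70651850-70654644, minus strand), the mouse gene whose human counterpart is the transgene, was at 6.63, 6.67 and 6.69 in MY1 to MY3 and 6.74, 6.95, 7.14, 7.18 and 7.07 in MO1 to MO5. Every MO mouse was above every MY mouse, MO1 only just, but the difference of 0.35 (SE 0.10, FDR 0.0278; 0.28 in batch 1) was under the fold threshold. *Prnp* (chr2:131909928-131938429, plus strand), whose promoter drives the transgene, measured 10.57, 10.61 and 10.54 in MY1 to MY3 and 10.94, 11.07, 10.53, 10.55 and 10.70 in MO1 to MO5 and differed by 0.19 (SE 0.13, FDR 0.331). Its mean was 8.63 in WY and 8.65 in WO, so the values of this table were higher in both mutant groups than in both wild-type groups. Whether fragments of the transgene align to mouse *Pfn1* or *Prnp* was not tested. *Pfn2*, the neuronal profilin, differed by -0.10 (SE 0.06, FDR 0.262).

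Actin regulators were called up in 8 of 31 genes and down in 0 (median 0.13). *Arpc1b*, a subunit of the branching complex in blood and immune cells, rose by 1.21 (SE 0.11, FDR 0.000302). *Capg*, a capping protein of macrophages, read 2.27, 2.36 and 2.46 in MY1 to MY3 and 4.53, 4.83, 5.16, 4.33 and 4.45 in MO1 to MO5, a change of 2.30 (SE 0.17, FDR 0.000212). *Dock2*, an exchange factor of leukocytes, rose by 1.2. These 3 genes are known mainly from blood and immune cells.

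Matrix and vessels were followed for scar and barrier. *Fn1*, fibronectin, rose by 1.15 (SE 0.13, FDR 0.000744) and the collagen-binding *Fmod* by 2.19 (SE 0.15, FDR 0.000203), while *Nid1*, a protein of basement membranes, was at 3.75, 3.73 and 3.63 in MY1 to MY3 and 1.56, 1.85, 1.95, 2.63 and 2.41 in MO1 to MO5, a change of -1.62 (SE 0.22, FDR 0.00147; -1.92 in batch 1). The elastase *Mmp12* rose by 1.52. *Mmp14* rose by 0.71 (SE 0.18, FDR 0.0207), with MO2 apart at 4.12 against at most 3.46, and the call was lost without MO2 (0.55) or without MY1, MY2 or MY3 (FDR 0.0747, 0.0662 and 0.0684). Of 25 matrix genes 4 were called up and 1 down (median -0.06), and with batch 1 alone 4 up and 3 down (median -0.19). The tight junction gene *Cldn5* differed by -0.02 (SE 0.16, FDR 0.945), with 1 wild-type mouse apart (WO4, 3.94), and the endothelial adhesion gene *Pecam1* by -0.07 (SE 0.07, FDR 0.544). *Icam1*, to which leukocytes bind, measured 0.87, 0.86 and 0.75 in MY1 to MY3 and 2.19, 2.58, 2.73, 2.08 and 2.35 in MO1 to MO5, a change of 1.56 (SE 0.14, FDR 0.000315) and the 1 call among 19 vessel genes (median -0.02).

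Cell division, neuronal activity and hormones can shift RNA within hours. Limma called 0 of 25 division genes, with 4 above 0 at an FDR of at most 0.05, close to the 13.1% of all genes, 12 at an unadjusted P below 0.05 and all 25 above 0 (median 0.19); *Mki67* differed by 0.23 (SE 0.10, FDR 0.116) and *Top2a* by 0.36 (SE 0.14, FDR 0.0909). Immediate early genes were called up in 2 of 11 (median 0.42) and in 5 with batch 1 alone. *Junb* rose by 0.94 (SE 0.15, FDR 0.0029) and *Egr2* by 0.74 (SE 0.09, FDR 0.000988), with MO3 apart at 1.23 against at most 0.91. *Fos* read 3.73, 3.67 and 3.64 in MY1 to MY3 and 4.12, 4.83, 4.53, 3.73 and 4.07 in MO1 to MO5; its difference of 0.58 (SE 0.22, FDR 0.0893) did not pass in all mice, but did with batch 1 alone (0.82, FDR 0.0152) and without MO4 (0.71, FDR 0.0232). *Egr1* differed by 0.36 (SE 0.18, FDR 0.183).

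Clock genes gave 0 calls of 12 in limma, 1 at an FDR of at most 0.05 and 4 at an unadjusted P below 0.05 (median -0.04), with *Dbp* at -0.20 (SE 0.37, FDR 0.747) and *Arntl* at -0.02 (SE 0.13, FDR 0.932). Glucocorticoid targets gave 0 calls of 9, 0 at an FDR of at most 0.05 and 4 at an unadjusted P below 0.05 (median 0.62), and *Pdk4* and *Plin4*, named after their values were seen, passed with batch 1 alone. Their mean level was 4.31, 4.09 and 3.98 in MY1 to MY3 and 5.68, 4.72, 4.48, 3.99 and 4.94 in MO1 to MO5. MO1 was thus highest and MO4 within the young range, and the target *Fkbp5*, with MO1 highest and MO4 lowest, was at 3.64, 3.60 and 3.48 in MY1 to MY3 and 5.40, 4.26, 3.79, 3.42 and 4.11 in MO1 to MO5 and differed by 0.62 (SE 0.38, FDR 0.277). *Tsc22d3*, another target, differed by -0.29 (SE 0.19, FDR 0.329).

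Tissue taken along at dissection would show in genes of nerve root, ganglion, muscle, meninges, blood or fat. Limma called 0 genes in each of these lists and in ependyma, the lining of the central canal. At an FDR of at most 0.05 there was 1 of 6 in ependyma, 1 of 5 in sensory ganglion and 1 of 6 in Schwann cells, and 0 elsewhere, against 25.6% of all genes. At an unadjusted P below 0.05 there were 1, 2 and 1, and 0 in the others.

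Schwann cell genes summed to an FPKM of 94.9, 92.7 and 90.3 in MY1 to MY3 and 62.1, 79, 78.6, 99.3 and 76.3 in MO1 to MO5, with *Pmp22* most abundant, at -0.25 (SE 0.13, FDR 0.209). Ganglion genes summed to 1.43, 1.22 and 1.43 in MY1 to MY3 and 2.42, 2.05, 2.06, 1.92 and 2.02 in MO1 to MO5, with *Scn9a* most abundant, while the nociceptor genes *Scn10a* and *Trpv1* differed by -0.01 and 0.03 and were near 0.

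Muscle genes summed to 2.63, 3.52 and 2.6 in MY1 to MY3 and 2.04, 3.67, 3.27, 3.43 and 2.76 in MO1 to MO5, with *Mylpf* most abundant (0.02) and *Acta1* at -0.01. Meningeal genes summed to 12.1, 13.3 and 13.6 against 10.9, 12.1, 13.3, 16.3 and 13.5, with *Dcn* most abundant and *Ogn* at -0.05 and *Slc6a13* at 0.11. Ependymal genes summed to 27.5, 29.5 and 27.8 against 27, 31.3, 31.8, 27.3 and 27.3, with *Foxj1* most abundant (-0.09) and *Rsph1* at 0.16. Blood genes summed to 69.6, 94.1 and 71.3 in MY1 to MY3 and 14.9, 86.3, 80.4, 83.7 and 55.2 in MO1 to MO5, and *Hba-a1* was 3.60 in MO1 against at least 5.42 in the other MO mice. *Hbb-bs* and the fat genes *Adipoq* and *Plin1* were near 0 in all mice. The median of the sex genes was -0.40 with MO5 and 0.04 without it.

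Outside the lists, the largest decrease among genes with groups that did not overlap was that of *Tgoln2*, a protein of the trans-Golgi network, at -2.68 (SE 0.24, FDR 0.000314). It varied as widely within the wild-type groups, at -0.03, 3.37 and 1.32 in WY1 to WY3 and -0.03, -0.03, 3.47, 3.15 and 0.60 in WO1 to WO5, and the difference of the age changes was not called (FDR 0.154). *Myoc*, an extracellular protein of myelinated tissue, measured 4.58, 4.57 and 4.63 in MY1 to MY3 and 2.38, 2.80, 3.30, 4.24 and 3.35 in MO1 to MO5 and fell by 1.38 (SE 0.35, FDR 0.0223), a call lost without MY1, MY2 or MY3 (FDR 0.0753, 0.0681 and 0.0762). The small nucleolar RNA *Snora17* was at 0.39 in all MY mice and at 4.62, 3.09, 5.05, 2.15 and 3.86 in MO1 to MO5, a change of 3.37 (SE 0.59, FDR 0.00442; 3.87 in batch 1). The wild-type mice held 4.90, 0.39 and 0.39 in WY1 to WY3 and 3.61, 3.98, 0.39, 1.86 and 2.05 in WO1 to WO5, and the difference of the age changes was not called (FDR 0.183). RNAs of this size are poorly recovered by poly(A) libraries, so its level says little about the mature molecule.

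Mice with the unchanged human gene also aged, from 50 days to between 190 and 294 days, and the difference of the age changes, mutant minus wild-type, sets the change in the mutant beside plain ageing. It passed in 4.65% of genes above 0 (845) and 0.963% below 0 (175), 1020 together, and the wild-type ageing alone in 0.253% (46). For *Gfap*, wild-type ageing gave -0.54, under the fold threshold, and the difference was 1.80, and in *Trem2* the difference was 2.84. *Cd44* fell with wild-type age by 0.67 and *Fcrls*, an Fc-like receptor of microglia, by 0.91, beside rises of 1.19 and 2.20 in the mutant and differences of 1.86 and 3.11. *Cd9*, a tetraspanin of glia, likewise changed by -0.61 and 1.16, with a difference of 1.77 and WO2 apart from the other WO mice. These wild-type calls were unstable, and of 18 alternatives 9 lost that of *Cd44*, 11 that of *Fcrls* and 6 that of *Cd9*.

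Among the largest differences above 0 were *Cst7* (4.63), *Lyz2* (4.54), *Gpnmb* (4.37), *Clec7a* (4.21) and *Cd52* (3.85), all genes of phagocytic microglia. Below 0, *Chodl* reached -1.60 and *Kcnk9* -1.49, and *Gabra2*, which gained 0.91 with wild-type age (a call that 2 of 18 alternatives lost), reached -1.32. WY1 held several neuronal genes lower than WY2 and WY3, *Kcnk9* at 2.88 and *Chrm2* at 2.10. Without WY1 the difference of *Kcnk9* was -0.92, that of *Chrm2* moved from -1.28 to -0.72 and that of *Chat* from -0.85 to -0.64, while *Chodl* kept -1.56. With batch 1 alone *Kcnk9* (-1.44, FDR 0.106) and *Chrm2* (-1.35, FDR 0.137) did not pass, nor did *Chrm2* without MO5 (-1.31, FDR 0.0579). These differences were about as large as with every mouse. In all, *Chrm2* (FDR 0.0483 with every mouse) was lost in 16 of 25 alternatives and *Kcnk9* in 7. The micro RNA gene *Mir8103* had the lowest value, -4.51, but it read 0.58, 0.58, 3.80, 1.14 and 2.80 in MO1 to MO5 and 0.58, 4.10 and 4.22 in MY1 to MY3. In the wild-type mice it was at 0.58 in WY1 to WY3 and at 3.43 to 4.32 in WO1 to WO5, a change of 3.33 that makes up most of the difference.

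Several myelin and sterol genes fell in both ageings, which share no mice. *Hmgcs1* changed by -1.51 in the mutant and -1.0 in the wild-type, *Ugt8a* by -1.53 and -0.87, *Mal* by -0.99 and -0.84 and *Gpr17* by -0.74 and -1.07. Of 18 alternatives 9 lost the wild-type call of *Hmgcs1*, 4 that of *Ugt8a*, 4 that of *Mal* and 2 that of *Gpr17*. The difference of *Hmgcs1* was -0.51 (FDR 0.3) and did not pass, but did without MO4 (-0.71, FDR 0.0481). That of *Ugt8a* was -0.67 (FDR 0.221) and passed with batch 1 alone (-0.92, FDR 0.0298) and without MO4 (-0.88, FDR 0.0317). That of *Idi1* was -0.56 (FDR 0.143) and passed likewise (-0.73, FDR 0.00262, and -0.74, FDR 0.00194). Of 22 myelin genes 9 were called down in the mutant, 7 in the wild-type and 1 in the difference. For the 30 sterol genes the numbers were 15, 3 and 2. With batch 1 alone the difference was called down in 3 genes of each list, and up in 1 sterol gene. Neurofilaments stood apart from these, with a difference of -0.88 for *Nefl* and 0 calls in the wild-type list. Without WY1 the calls of their list below 0 in the difference went from 5 to 3. The median difference of that list then moved from -0.53 to -0.40.

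**Figure D3:**
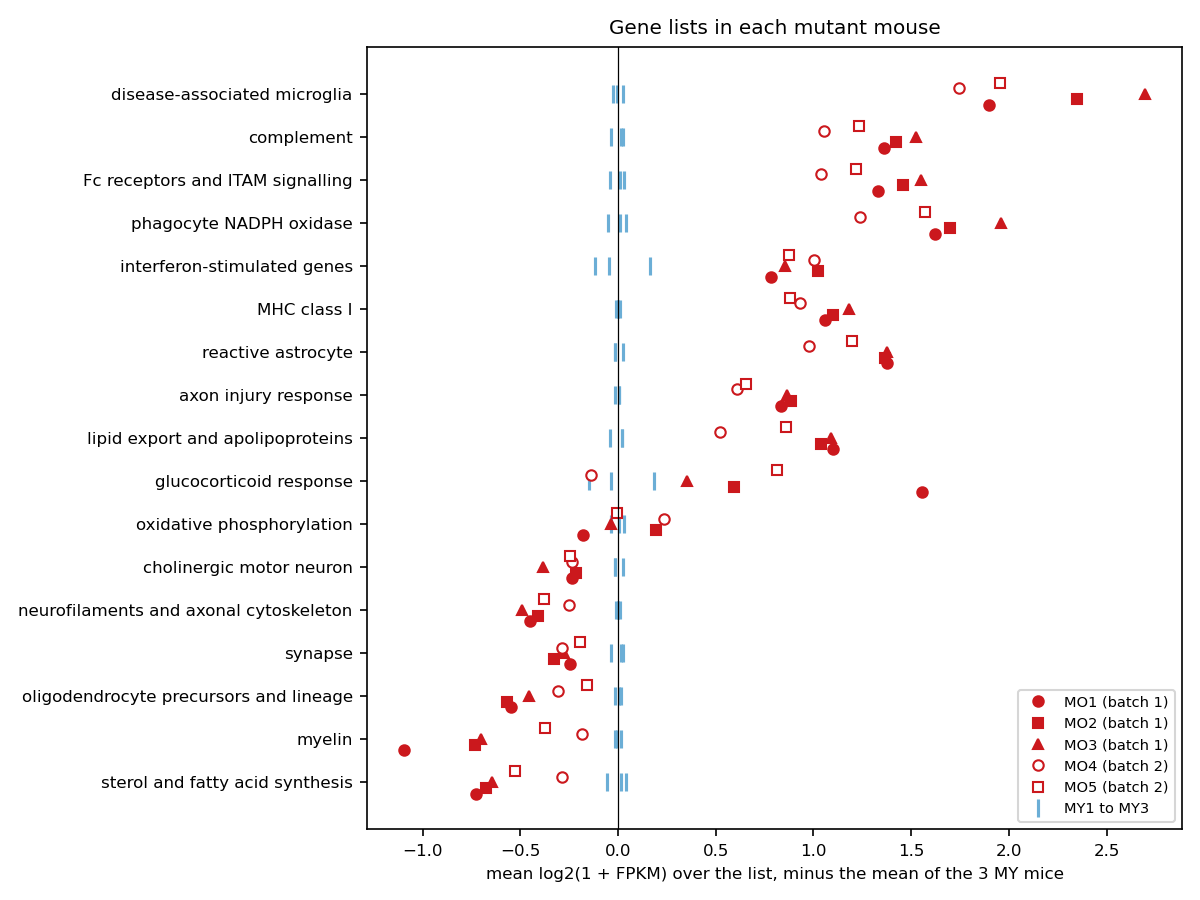
Mean log2(1 + FPKM) of 17 gene lists in each MO mouse minus the mean of the 3 MY mice (horizontal axis, log2 units), with ticks for the MY mice. Filled points are batch 1 and open points batch 2, as for the disease-associated microglia list at 6.11, 6.56, 6.91, 5.96 and 6.17 in MO1 to MO5 before the MY mean is subtracted.

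From 50 days to end stage, calls upward covered 15 of 15 Fc receptor genes, 7 of 7 oxidase genes, 13 of 14 MHC class I genes and 23 of 26 genes of disease-associated microglia. Reactive astrocytes followed with 21 of 28, interferon-induced genes with 18 of 24 and complement with 11 of 16. Since lists and members were chosen with earlier results of these data known, such counts are no test. Decreases were smaller by the median. They covered 15 of 30 sterol genes, 9 of 22 myelin genes and 3 of 10 axonal cytoskeleton genes, and single neuronal genes such as *Chodl*, *Mmp9* and *Glra1*. For *Glra1* the difference of the age changes was not called (FDR 0.062). Over the called genes MO4 had the smallest median distance from MY in both directions, but *Mmp9* and *Glra1* were nearest to MY in MO5. Both mice are of batch 2, so mouse and batch cannot be told apart. Every MY mouse was 50 days old, so age and stage changed together in these mice, and the wild-type mice remove ageing only as far as their ages match.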

How the data were processed

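The log2 values, of 1 plus FPKM (fragments scaled to transcript length and library size), were computed by the authors and are taken as deposited. Their notes name Trimmomatic for cleaning, TopHat for alignment to mm10 and Cufflinks for FPKM, with versions not given. The authors also adjusted the values for 2 batches with ComBat, which left 915 values below 0. The depth behind single genes is unknown and library depth was not used here, so precision rests on the spread between mice. Of the columns per sample, 0 were unused.

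Fits were made with limma 3.58.1 in R 4.3.3 on 18167 genes, with empirical Bayes variances and a false discovery rate (FDR) after Benjamini and Hochberg. All FDR values and unadjusted P values in the text come from these fits. A gene was called at an FDR of 0.05 or less and a fold change of 1.5 or more, which is 0.58 in log2. MY was compared with MO, WY with WO, and the difference of these age changes was fitted on all 16 mice. The unit was the mouse. Python 3.11.15 with pandas 2.3.3, NumPy 2.4.6 and matplotlib 3.10.9 made the summaries and figures. On simulated data with 200 changed genes the fit of MY and MO recovered 190 at a change of 1 and 200 at a change of 2, and made 0 calls where nothing was changed.

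The 188 named genes were the 10 largest increases and decreases among called genes whose groups did not overlap, the 2 genes that lead each of 52 lists (818 genes in all), up to 3 further called members of each list by size of change, *Pfn1* and *Prnp*, the 5 largest differences of the age changes in each direction, and the 3 largest in each direction among genes called in both ageings. Some genes selected in this way are not reported here. For the difference of the age changes the alternatives followed 65 of these genes, the first of each list, *Pfn1*, *Prnp* and those chosen by that difference or as called in both ageings. Any other gene was chosen after its value was seen. Members and lists were chosen with earlier results of these data known. A mouse stood apart in a group of 5 when Dixon's ratio exceeded 0.71.

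Gene positions came from GENCODE M21 (GRCm38) by symbol for 17419 genes (95.9%), of which 33 symbols had more than 1 gene. Promoters, 250 bases before to 50 after the start, came from RefSeq on GRCm38.p6. Motifs were counted on both strands in 27025 promoters. Genes of similar sequence, such as the H2, *Mt1* and *Naip* families, may share reads, and the strand used in counting is not stated.

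The alternatives were batch 1 alone, batch as a term, genes with a mean of at least 1, no small RNAs (72 genes), all 4 groups in 1 fit, quantile normalization, a pseudocount of 0.1, an intensity trend, the treat test of limma with a minimum fold change of 1.2, a block for mice of the same number, and fits that omit 1 mouse at a time.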

Additional observations from a re-analysis of the deposited data

Results flagged for a closer look

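Chance alone would set about 1 in 20 groups apart, and 12 of 253 groups of 5 mice held 1 mouse far from its group. *Xist* was at 3.21 in MO5 (others -0.36 to 0.26) and *Ddx3y* at 1.95 in MO5 (4.30 to 4.70). *Gabra2* was at 4.69 in MO5 (5.21 to 5.39) and *Glra1* at 5.15 in MO5 (4.37 to 4.53). *Apoc1* was at 4.15 in MO4 (5.54 to 5.72) and *Apoc4* at 1.34 in MO4 (2.91 to 3.36). *Egr2* was at 1.23 in MO3 (0.79 to 0.91), *Mmp14* at 4.12 in MO2 (3.25 to 3.46) and *Hba-a1* at 3.60 in MO1 (5.42 to 5.99). Of the wild-type mice, WO4 held *Mbp* at 5.36 (12.42 to 14.22) and *Cldn5* at 3.94 (4.58 to 4.70), and WO2 held *Cd9* at 5.91 (5.75 to 5.79).

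The age change differed between mutant and wild-type mice in 1020 genes, 109 of the 188 named genes among them. The alternatives followed 65 named genes for this difference, of which 29 passed and are given here; the other named genes that passed are not listed. It was above 0 for *Cst7* (4.63), *Lyz2* (4.54), *Gpnmb* (4.37), *Clec7a* (4.21), *Cd52* (3.85), *Fcrls* (3.11), *C1qa* (2.98), *Atf3* (2.84), *Trem2* (2.84), *Cybb* (2.44) and *Fcgr3* (2.02). Smaller values above 0 were those of *Cd44* (1.86), *Cd74* (1.86), *Tlr2* (1.82), *Gfap* (1.80), *Cd9* (1.77), *H2-K1* (1.61), *Hmox1* (1.58), *Ccl2* (1.41), *Abca1* (1.34), *Ifitm3* (1.33) and *Csf1* (0.71). The difference was below 0 for *Mir8103* (-4.51), *Chodl* (-1.60), *Kcnk9* (-1.49), *Gabra2* (-1.32), *Chrm2* (-1.28), *Nefl* (-0.88) and *Chat* (-0.85).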

How the results depend on the processing

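Of 123 named genes called between MY and MO, 106 stayed called under every alternative in which they were fitted. Of the same 123, 17 were lost at least once and 0 changed sign while called. Genes with a mean below 1, such as *Apoc4*, were not fitted where a mean of at least 1 was required. Lost with treat alone were *Apod* (FDR 0.0541), *Cyp51* (0.0589), *Igfbpl1* (0.0573), *Kcnk9* (0.0602), *Ecel1* (0.0961) and *Fgf2* (0.1), and *Slc6a5* was lost with all 4 groups in 1 fit (0.0707). The other lost genes were *Aldh1l1*, *Atf5*, *Calca*, *Gadd45a*, *Gpr17*, *Mmp14*, *Myoc*, *Slc7a10*, *Stab1* and *Tmem119*, each lost with treat and with at least 1 mouse left out. Of these, *Stab1* was also lost with quantile normalization (0.54) and *Gpr17* with the pseudocount of 0.1 (FDR 0.0514). Of the 65 named genes that were not called, *Fos*, *H2-Aa*, *Mbp*, *Mrc1* and *Tnf* were called at least once. Leaving out 1 mouse gave between 805 and 1011 called genes against 890. With a pseudocount of 0.1 the total was 1483, with 1233 up and 250 down, since genes near 0 then gain larger log2 changes. Calls downward numbered 258 with batch 1 alone and 258 with batch as a term, against 143. Every MY mouse is of batch 1, so a batch term leaves the change between MY and MO to batch 1 alone. *Mbp*, for example, changed by -0.80 in both. Why batch 1 gave more calls than all mice was not tested.

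With the replicate number as a replicate block, calls downward also numbered 258. Numbers 4 and 5 occur only among the MO mice here, so this change too rests on batch 1 alone. The labels do not pair the mice, and correlations of their deviations were 0.195, 0.088 and 0.162 for mice of the same number and -0.164 to 0.0311 for the 6 other pairs. Mice of the same number were thus the more alike, but since no label pairs them and 1 value was under 0.1, no pairing was assumed.

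Called genes of a list, up or down, moved by more than a factor of 1.5, to 0, or from 0 to more than 1 for 12 counts with treat, 6 with batch 1 alone, 6 with batch as a term, 6 with the replicate block, 5 with the pseudocount, 5 with a mean of at least 1, 2 with quantile normalization and 2 with all 4 groups in 1 fit. Without MO1 to MO5 in turn 4, 1, 2, 3 and 1 counts moved so, and without MY1 to MY3 4, 6 and 4.

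Calls in wild-type ageing, 46, became 73 with batch 1 alone, 80 with batch as a term and 3 with limma's treat, which asks for more than a fold change of 1.2. Leaving out 1 mouse gave 7 to 64, with 26 without WO2, 27 without WO3, 23 without WY1, 30 without WY2 and 7 without WY3. The difference of the age changes, 1020 genes, became 1548 with the pseudocount of 0.1 and 608 with treat, of which 563 were above 0. It passed in 109 of the 188 named genes, but only 65 of these 188 were followed under the alternatives. Of the 65 followed, 29 passed, 26 of them under every alternative in which they were fitted. *Cd74* was lost in 2 of 25, *Chrm2* in 16 and *Kcnk9* in 7. Another 10 of the 65 passed at least once, *Fn1*, *Hmgcs1*, *Hspa5*, *Idi1*, *Mki67*, *Mrc1*, *Pfn1*, *Scn1a*, *Snap25* and *Ugt8a*. Of the 1020 genes, those with a difference below 0, 175, became 277 with quantile normalization, 315 with the pseudocount, 45 with treat and 78 to 366 with 1 mouse left out, lowest without WY1 and highest without WY2. The cause of the changes without a stated reason was not tested. No young mouse is in batch 2, the depth behind single genes is unknown, and age and stage changed together in the mutant mice.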
